A study of Mus musculus with 18 samples.

Results

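Outside the zinc finger cluster of distal chromosome 4, 39 windows of 1 Mb on the mouse autosomes were crowded with peaks of H3K9me3, the trimethylation of histone H3 at lysine 9. They held 840 H3K9me3 peaks in Cre cells and 1967 in GFP cells. These were 23.9% of the 3516 autosomal Cre peaks and 20.5% of the 9574 autosomal GFP peaks. Chromosomes 1 to 19 of build NCBIM37 had been divided into windows of 1 Mb, and a window counted as dense when at least 30 peaks of the GFP H3K9me3 list had their midpoint in it. Chromosome 4 was left out between bases 145000001 and 148000000. The windows were thus chosen by the number of GFP H3K9me3 peaks, which is given here as a description with no test, and every ratio of Cre to GFP peaks inside them shares that measure. Of 2023 autosomal windows with any GFP H3K9me3 peak, 39 met the rule.

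The cells were mouse embryonic fibroblasts (MEFs) on a mixed B6;129 background, all with a conditional knockout allele of Rb, the retinoblastoma tumour suppressor. Cre cells had received an adenovirus with the Cre recombinase, by which the labels say Rb was deleted, and GFP cells an adenovirus with green fluorescent protein as control; neither had the label with 4F. Both were passaged no more than 3 times before harvest. H3K9me3, H3K4me3, H3K27me3 and pan-acetylated H3 (H3Ac) each had 1 deposited library per condition, and the other 10 of the 18 samples were not analysed here. Neither the loss of Rb nor the fibroblast identity of the cells could be checked against genes, since no annotation of the build was at hand. No difference between Cre and GFP cells below has a replicate check. The lists held between 3985 and 48778 peaks, and the reads behind them are unknown. The length of a list depends on reads and on the quality of the precipitation too.

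H3K9me3 is the main histone mark of constitutive heterochromatin. It is written by enzymes such as SETDB1, which KRAB zinc finger proteins bring to retrotransposons and to zinc finger genes through the corepressor TRIM28, and by the SUV39H enzymes, and it is bound by HP1 proteins. Large clusters of related genes, such as those of zinc finger proteins and olfactory receptors, and stretches rich in retrotransposons are known carriers of the mark in mouse cells. Rb itself is known to interact with SUV39H1 and HP1 at some of the genes it represses. H3K4me3 and H3 acetylation mark active promoters, and H3K27me3 marks Polycomb-silenced genes. Which genes or repeats lie in the 39 windows was not analysed here.

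The dense windows lay on 11 of the 19 autosomes, in 27 runs of adjacent windows, of which 21 were single windows. Chromosome 12 held 11 of them, chromosome 7 held 8 and chromosome 5 held 4. Chromosomes 4, 13 and 17 held 3 each, chromosomes 1 and 14 held 2 each, and chromosomes 3, 10 and 16 held 1 each. The longest run, of 7 windows, stretched from 18 to 25 Mb of chromosome 12, with 210 Cre and 425 GFP peaks. A second run on chromosome 12, from 114 to 117 Mb, held 54 Cre peaks, which covered 67.2 kb, against 245.8 kb covered in GFP cells. On chromosome 7 the dense windows began at 7, 9, 10, 15, 39, 46, 50 and 66 Mb. On chromosome 5 they began at 94, 95, 105 and 146 Mb, on chromosome 4 at 60, 61 and 121 Mb, on chromosome 13 at 62, 65 and 66 Mb, and on chromosome 17 at 13, 22 and 38 Mb. Those of chromosome 1 began at 85 and 87 Mb, those of chromosome 14 at 7 and 43 Mb, and the single ones of chromosomes 3, 10 and 16 at 93, 81 and 3 Mb. The remaining window, on chromosome 12, began at 89 Mb.

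The number of H3K9me3 peaks per dense window ranged from 5 to 59 in the Cre list (median 18) and from 30 to 115 in the GFP list (median 43). The window at 95 to 96 Mb of chromosome 5 led the GFP list, with 12 Cre peaks against 115 GFP peaks. The windows that began at 19, 20 and 18 Mb of chromosome 12 came next, with 48 Cre and 101 GFP peaks, 54 Cre and 94 GFP peaks, and 44 Cre and 84 GFP peaks. The order in the Cre list was another: the window at 85 to 86 Mb of chromosome 1 led it, with 59 Cre peaks against 41 GFP peaks, and it was the one dense window of the 39 with more Cre than GFP peaks. At the threshold, 3 dense windows held exactly 30 GFP peaks and 11 to 14 Cre peaks, and the next windows below it held 27 GFP peaks and 5 to 15 Cre peaks.

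**Figure D1:**
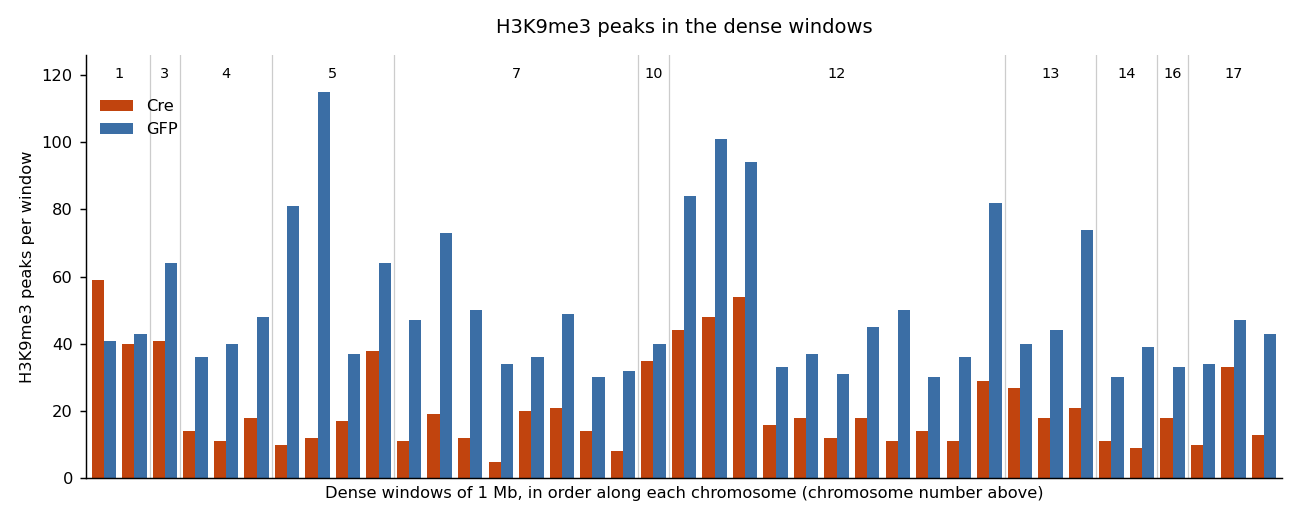
Number of H3K9me3 peaks (vertical axis) in each of the 39 dense windows (horizontal axis, in order along each chromosome, chromosome number above), Cre bars left of GFP bars, 1 library each. The GFP bar is the taller one in 38 windows; the first window of chromosome 1 is the exception, with 59 Cre and 41 GFP peaks.

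The median gap from a member to the next peak was 6300 bases in Cre and 3639 bases in GFP cells, and the short gap between GFP peaks follows from the way the windows were chosen. The members were wider than other autosomal H3K9me3 peaks, with medians of 1050 against 804 bases in Cre cells and 1163 against 1019 bases in GFP cells. Members of at least 5 kb numbered 16 in Cre (1.90%) and 84 in GFP cells (4.27%), and other autosomal peaks of that width made up 1.77% and 0.948%. Crowding was uneven within a window: the densest 100 kb held between 19.1% and 70.0% of its GFP peaks, with a median of 32.8%. The extremes were 21 of the 30 peaks of the window at 114 to 115 Mb of chromosome 12 and 22 of the 115 peaks of the window at 95 to 96 Mb of chromosome 5.

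The widest Cre member, of 22413 bases, had its ends at 20231963 and 20254375 of chromosome 12. It scored 91.0 and had no GFP counterpart, the nearest GFP H3K9me3 peak being 1535 bases away. It overlapped H3K4me3 in both libraries. The widest GFP member, of 19368 bases and a score of 192.5, had its ends at 10585139 and 10604506 of chromosome 7, and 3 Cre peaks overlay 41.2% of its length. The second, of 17630 bases between 87384718 and 87402347 of chromosome 1, was overlapped by 4 Cre peaks that lay on 66.7% of its length. These domains show a general feature of wide GFP members: 56 of the 84 of at least 5 kb (66.7%, 55.5 to 76.6) were overlapped by 2 or more Cre peaks. In the other autosomal windows, without the excepted stretch of chromosome 4, 31 of 69 such peaks were (44.9%, 32.9 to 57.4), with an interval that overlapped that of the members. In the excepted stretch 40 of 56 were (71.4%, 57.8 to 82.7). Over members of every width the share overlapped by 2 or more Cre peaks was 6.35% (125 of 1967), against 3.02% of all autosomal GFP H3K9me3 peaks. Wide Cre members were less often matched than wide GFP ones: 10 of the 16 of at least 5 kb had a GFP counterpart (62.5%, 35.4 to 84.8), where 79 of the 84 GFP members of that width had a Cre counterpart (94.0%, 86.7 to 98.0). In the other autosomal windows 33 of 41 such Cre peaks (80.5%, 65.1 to 91.2) and 62 of 69 such GFP peaks (89.9%, 80.2 to 95.8) were matched, and the intervals overlapped those of the members.

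Cre peaks covered 1200 kb of the dense windows and GFP peaks 3362 kb, a ratio of 0.357. The ratio of peak numbers, 840 to 1967, was 0.427 (95% interval 0.393 to 0.463). The choice of windows on the GFP list bears on these values: in the 10 windows with at least 30 Cre peaks, the excepted stretch again left out, the ratio of peak numbers was 0.708 (0.624 to 0.803) and that of covered bases 0.556. In the other autosomal windows both ratios were lower, 2312 to 7275 peaks or 0.318 (0.303 to 0.333), and 0.290 for covered bases. In the excepted 3 windows of chromosome 4 they were higher, 1.10 (0.942 to 1.28) and 0.728. When both lists were shortened to the same number of top-scoring peaks, the count ratio was 1.03 in the dense windows, with an interval of 0.934 to 1.13 that holds 1, and 0.959 in the other windows. The ratio of covered bases, 0.544, was then below the 0.588 of the other windows. No dense window was covered more in Cre than in GFP cells. Cre peaks covered under 0.5 of the GFP bases in 32 of the 39 dense windows, which is 82.1%, where 89.5% of all autosomal windows with at least 5 GFP H3K9me3 peaks did so. A dense window was thus no more often below that limit than other windows were.

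The dense windows differed widely among themselves in this ratio of covered bases, from 0.0651 to 0.759 with a median of 0.299. The lowest were the neighbouring windows of chromosome 5 that began at 95 and 94 Mb, where Cre peaks covered 9.53 kb against 146.5 kb for GFP peaks, and 8.34 kb against 101.5 kb. The third lowest, from 15 to 16 Mb of chromosome 7, had 4.43 kb under Cre peaks and 40.9 kb under GFP peaks. The highest ratio, 0.759, belonged to the window at 85 to 86 Mb of chromosome 1, where 129.9 kb lay under Cre peaks against 171.3 kb under GFP peaks. There the median peak width was 1713 bases in Cre and 3341 bases in GFP cells, so that more Cre peaks covered fewer bases. The window at 62 to 63 Mb of chromosome 13 followed with 0.700, having 44.2 kb under Cre peaks against 63.2 kb under GFP peaks. The third, at 20 to 21 Mb of chromosome 12, had 0.676, and without its single Cre peak of 22.4 kb the ratio was 0.540.

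**Figure D2:**
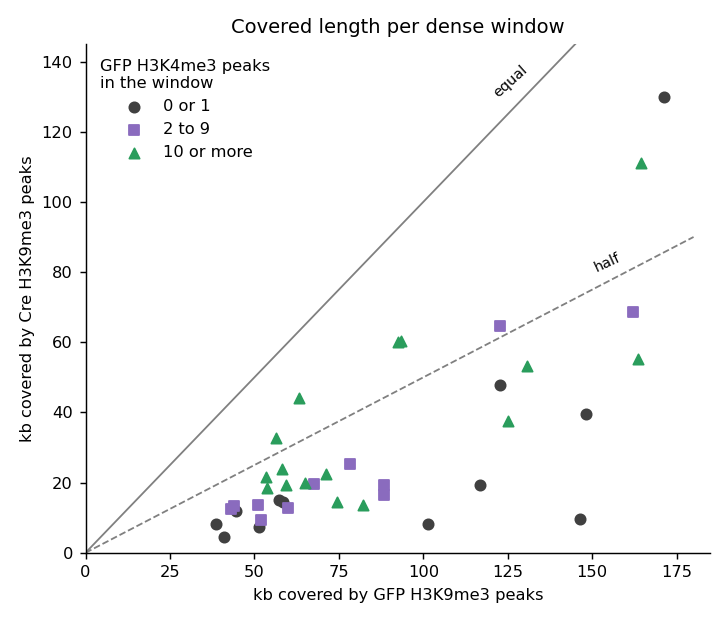
Length covered by H3K9me3 peaks in each dense window, in kb, in the Cre list (vertical axis) against the GFP list (horizontal axis); each point is a window, its shape and colour giving the number of GFP H3K4me3 peaks in it, and the lines mark equal cover and a ratio of 0.5. All 39 points lie below the line of equal cover, and 32 lie below the ratio of 0.5.

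Most Cre members lay on a GFP peak, whereas most GFP members lay on no peak of the shorter Cre list. In Cre cells 640 of 840 members (76.2%, 73.2 to 79.03) had a GFP counterpart, where 59.2% of all autosomal Cre H3K9me3 peaks did and 1156 of the 2312 (47.9% to 52.1%) in the other windows. In GFP cells 522 of 1967 members (26.5%, 24.6 to 28.5) had a Cre counterpart, where 18.9% of all autosomal GFP peaks did and 15.0% (14.2 to 15.9) of those in the other windows. Both shares were above those of the other windows. For Cre members this follows largely from the rule, which chose windows with many GFP H3K9me3 peaks for them to meet. The chance of landing on a peak was greater here too: peaks covered 3.08% of the dense windows in Cre and 8.62% in GFP cells, against 0.110% and 0.380% of the other autosomal windows. The part of that cover in the higher shares was not tested. The size of the GFP share depended on the settings: 46.6% with equal numbers of top-scoring peaks, where the Cre share was 61.4%, 41.3% in windows chosen on the Cre list, and 16.0% when at least 50% of the peak had to be overlapped.

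Sharing was more frequent among higher-scoring peaks in the dense windows and in the other autosomal windows. In the excepted windows of chromosome 4 this held for GFP peaks, whereas the share of Cre peaks was 86.3% at scores of 50 to 60 and 81.3% from 400. Among GFP members with a score of 50 to 60, 31 of 430 (7.21%) had a Cre counterpart, and among those of at least 400, 102 of 111 did (91.9%). Other autosomal peaks in these classes were shared in 5.03% and 93.7% of cases. At scores of 100 to 150 the share was 28.4% of the GFP members (23.5 to 33.6) and 16.8% (14.7 to 19.0) of the other peaks. All 31 Cre members with a score of at least 400 had a GFP counterpart, as did 153 of the 252 Cre members with scores of 50 to 60 (60.7%, 54.4 to 66.8), where the other windows gave 35.9% (32.7 to 39.1). The choice of windows by their many GFP peaks bears on this contrast of Cre peaks too. For GFP peaks the intervals of dense and other windows lay apart at scores of 60 to 80 and of 100 to 200, and overlapped in the other classes.

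**Figure D3:**
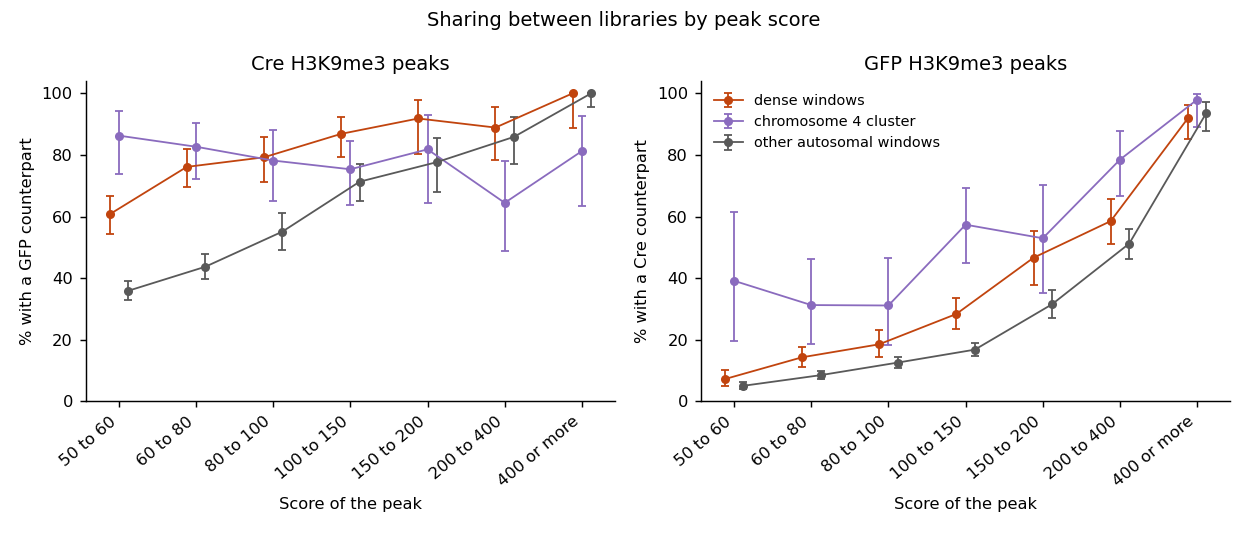
Share of H3K9me3 peaks with a counterpart in the other library (vertical axis, %), by score of the peak (horizontal axis), for Cre peaks on the left and GFP peaks on the right, in dense windows, in the 3 excepted windows of chromosome 4 and in the other autosomal windows; bars are exact 95% binomial intervals. In dense windows the GFP share runs from 7.21% in the lowest class of scores to 91.9% in the highest.

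Of the 200 Cre members without a counterpart, 74.0% were within 5000 bases of a GFP peak, which the crowding of GFP peaks that chose the windows largely fixes. Over all autosomal Cre H3K9me3 peaks without a counterpart the share was 34.3%. Of the 1445 GFP members without one, 504 (34.9%) were within 5000 bases of a Cre peak. The share was 16.6% over all autosomal GFP H3K9me3 peaks without a counterpart, and 85.5% in the excepted windows of chromosome 4. The highest-scoring GFP member without a counterpart scored 1037, spanned bases 9182594 to 9189916 of chromosome 7 and lay 5230 bases from the nearest Cre peak. The second, beside it, scored 686.2 and lay 3035 bases from one. The third, between 116850581 and 116857322 of chromosome 12, scored 547.8 and lay 603 bases from a Cre peak. The next, between 46511846 and 46518705 of chromosome 7, scored 514.3 and lay 92 bases from one. The fifth, on chromosome 4, scored 492.3 and lay 3213 bases from one. The highest-scoring Cre members without a counterpart had scores of 391.6, between 85081293 and 85088551 of chromosome 1, and of 365.5, between 93624645 and 93629661 of chromosome 3, and lay 15922 and 3682 bases from a GFP peak. The authors' scores are not on a common scale between the lists.

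The other marks, which the choice of windows did not use, set the dense windows apart. H3Ac peaks were sparse, with 6.87 per Mb in Cre (6.07 to 7.75) and 7.15 in GFP cells (6.34 to 8.04), against 17.5 and 20.1 per Mb in the other autosomal windows. H3K27me3 peaks were sparser still, with 1.97 per Mb in Cre (1.56 to 2.47) and 2.28 in GFP cells (1.83 to 2.81), against 12.3 and 14.3. H3K4me3 peaks were not: there were 8.62 per Mb in Cre (7.72 to 9.59) and 8.85 in GFP cells (7.94 to 9.83), close to the 9.05 and 9.51 of the other windows. These H3K4me3 peaks scored lower, however, with medians of 309.3 against 922.7 in Cre and 249.0 against 585.4 in GFP cells. H3Ac was lacking in both lists from 10 dense windows, H3K27me3 from 22 and H3K4me3 from 6. Taken by list, H3K4me3 was lacking from 17.9% of them in Cre and 20.5% in GFP cells, against 11.6% and 11.9% of the other windows. For H3Ac the share was 28.2% in each list, against 10.9% in Cre and 9.38% in GFP cells. H3K27me3 was lacking from 26 dense windows in Cre and 23 in GFP cells, against 619 and 592 of the 2366 other windows. Only windows that held a peak of any list were counted among those 2366, so windows without any peak are left out.

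**Figure D4:**
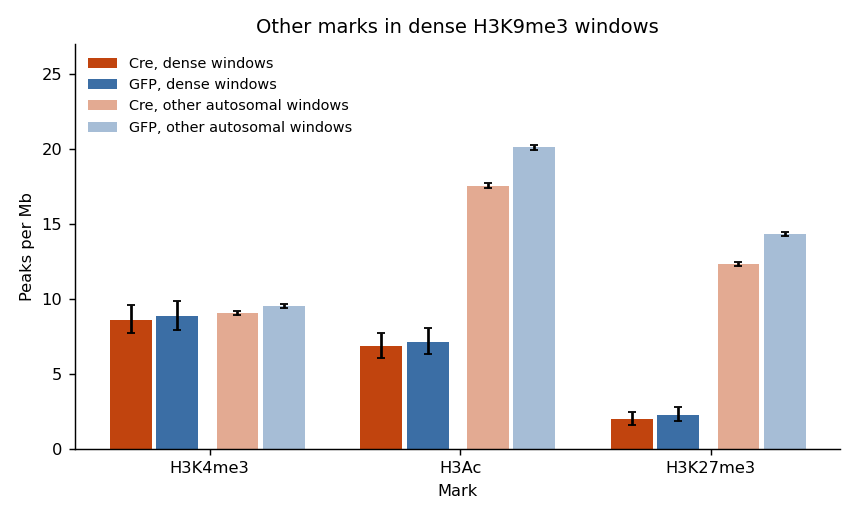
Peaks per Mb (vertical axis) of H3K4me3, H3Ac and H3K27me3 (horizontal axis) in the 39 dense windows and in 2366 other autosomal windows, Cre and GFP lists; bars are exact 95% Poisson intervals, for counting error only. H3Ac and H3K27me3 peaks are fewer per Mb in the dense windows in both conditions, and H3K4me3 peaks are of like number, whatever their score.

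The windows ranged from bare to crowded with H3K4me3. In 5 of them no peak of the other 3 marks was found in either list: those that began at 60 and 121 Mb of chromosome 4, 95 Mb of chromosome 5, 116 Mb of chromosome 12 and 38 Mb of chromosome 17. At the other end, the window at 81 to 82 Mb of chromosome 10 held 45 Cre and 48 GFP H3K4me3 peaks and 38 Cre and 37 GFP H3Ac peaks, beside 35 Cre and 40 GFP H3K9me3 peaks. The window at 22 to 23 Mb of chromosome 17 held 29 Cre and 32 GFP H3K4me3 peaks, but 10 H3Ac peaks in each list. The ratio of Cre to GFP H3K9me3 peaks rose with the number of GFP H3K4me3 peaks. Whether the H3K9me3 cover of either list alone rose with it was not tested. In the 16 windows with 10 or more GFP H3K4me3 peaks the ratio of Cre to GFP H3K9me3 peaks was 0.510 (0.451 to 0.576), in the 11 windows with 2 to 9 it was 0.415 (0.351 to 0.489), and in the 12 with 0 or 1 it was 0.342 (0.294 to 0.397). Over the 39 windows, Spearman's rho between the number of GFP H3K4me3 peaks and the ratio of covered bases was 0.60, and that between the median GFP H3K9me3 score and the ratio was 0.50. The windows share 1 library per list, and some are neighbours. The window at 85 to 86 Mb of chromosome 1 departed from the trend, with 1 Cre and 0 GFP H3K4me3 peaks and the highest ratio.

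Some of the H3K4me3 in these windows lay on H3K9me3 itself. H3K4me3 of the same library overlapped 84 of the 840 Cre members (10.0%, 8.05 to 12.2) and 103 of the 1967 GFP members (5.24%, 4.29 to 6.31). Over all autosomal H3K9me3 peaks the shares were 15.2% in Cre and 10.6% in GFP cells, so that H3K4me3 was less frequent on the members. It was most frequent on the strongest of them: 28 of the 31 Cre members with a score of at least 400 overlapped H3K4me3, against 16 of the 583 with a score below 100. In GFP cells 53 of 111 (47.7%, 38.2 to 57.4) and 16 of 1207 did. The other autosomal windows had the same order, with 80 of 84 against 150 of 1798 Cre peaks and 85.7% (78.4 to 91.3) against 330 of 5080 (6.50%) GFP peaks. The doubly marked members lay in 18 of the 39 windows in Cre and in 22 in GFP cells. The run from 18 to 25 Mb of chromosome 12 held 23 Cre and 29 GFP ones, the window at 22 to 23 Mb of chromosome 17 held 17 Cre and 18 GFP ones, the window at 81 to 82 Mb of chromosome 10 held 16 and 20, and the window at 62 to 63 Mb of chromosome 13 held 10 and 9.

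Each of the 5 Cre members with the highest scores overlapped H3K4me3 in both libraries. The first scored 1343 and spanned 8040 bases between 22422782 and 22430821 of chromosome 17, and a GFP peak that scored 1416 overlay 92.5% of its length. H3K4me3 there scored 1038 in Cre and 1449 in GFP cells. The second scored 1103 for H3K9me3 and spanned 105010892 to 105015347 of chromosome 5, and its H3K4me3 scores were 1641 in Cre and 1676 in GFP cells. The GFP member with the highest score, 1639, spanned 81568368 to 81577163 of chromosome 10, and 3 Cre peaks overlay 67.1% of its length. H3K4me3 there scored 833.9 in Cre and 1091 in GFP cells. Another of the 5 leading GFP members was unlike these: between 50440132 and 50448256 of chromosome 7, with an H3K9me3 score of 1317, it met H3K4me3 in the GFP list alone, with a score of 54.3 near the lowest deposited value. None of these peaks overlapped H3Ac of the same library.

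Over all scores, doubly marked members were shared between the libraries more often than the rest. A Cre counterpart was found for 90 of the 103 GFP members on H3K4me3 (87.4%, 79.4 to 93.1) and for 432 of the 1864 others (23.2%, 21.3 to 25.2). The doubly marked ones also scored higher and were wider, with a median score of 413.1 against 82.2 and a median width of 3176 against 1140 bases. In Cre cells 81 of 84 doubly marked members (96.4%, 89.9 to 99.3) and 559 of 756 others (73.9%, 70.7 to 77.0) had a GFP counterpart. Among GFP members the order was the same within each class of score. At scores below 100, 11 of 16 doubly marked GFP members (68.8%, 41.3 to 89.0) and 12.1% of the others (10.3 to 14.1) had a Cre counterpart. At 100 to 200 the shares were 76.2% (52.8 to 91.8) and 31.6% (27.3 to 36.2), at 200 to 400 they were 84.6% (54.6 to 98.1) and 56.6% (48.9 to 64.0), and from 400 they were 98.1% (89.9 to 99.95) and 86.2% (74.6 to 93.9). The GFP intervals overlapped in the upper classes, from 200. Among Cre members the intervals overlapped in every class. Their shares were 93.8% (69.8 to 99.8) against 69.5% (65.5 to 73.3) below 100, and 94.1% against 87.7% at 100 to 200. At 200 to 400 they were 95.7% against 85.0%, and from 400 they were 100% for both. For GFP peaks of the other autosomal windows the same order was found, 45.4% of the doubly marked ones against 10.9% of the others. Their Cre peaks had the reverse order at 100 to 200 (69.6% against 74.8%) and 200 to 400 (84.6% against 88.9%), but not below 100. In the excepted windows of chromosome 4 the GFP shares were 74.1% against 55.4% over all scores. The order was reversed there below 100 (1 of 4 against 37 of 112) and at 100 to 200 (50% against 56.7%). It was also reversed at 200 to 400 (70.6% against 81.3%), but not from 400. Intervals overlapped in all these classes.

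No member overlapped an acetylated H3 peak of its own library, 0 of 840 in Cre and 0 of 1967 in GFP cells, which allows shares of up to 0.357% and 0.153% (3 counts of the total). Over all autosomal H3K9me3 peaks the overlap was 0.626% in Cre and 0.449% in GFP cells. The nearest H3Ac peak lay 925 bases from a Cre member and 1155 bases from a GFP member. Polycomb's H3K27me3 overlapped 0 Cre and 2 GFP members, against 2.3% and 2.6% of all autosomal H3K9me3 peaks. The limits for H3Ac were thus below the shares over all autosomes in both libraries. Those shares include the excepted windows of chromosome 4, with 1.10% in Cre and 4.52% in GFP cells. The other autosomal windows had 0.779% and 0.385%. H3Ac peaks were also sparser in the dense windows, and the part of this in the lack of overlap was not tested.

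The H3K4me3 peaks of the dense windows differed by whether they lay on H3K9me3. Those on H3K9me3 carried no H3Ac peak, 0 of 86 in Cre, which allows up to 3.49%, and 0 of 113 in GFP cells, which allows up to 2.65%. Those off H3K9me3 overlapped H3Ac in 199 of 250 cases in Cre (79.6%, 74.1 to 84.4) and 181 of 232 in GFP cells (78.0%, 72.1 to 83.2). Over all autosomal H3K4me3 peaks the shares with H3Ac were 85.3% in Cre and 80.5% in GFP cells. The same split was found in the other autosomal windows, where H3Ac overlapped 3.79% (2.14 to 6.17) of the Cre and 2.03% (1.21 to 3.18) of the GFP H3K4me3 peaks on H3K9me3, against 87.5% and 84.5% of those off it. The H3K4me3 peaks on H3K9me3 also scored lower, with medians of 163.2 against 544.1 in Cre and 125.1 against 508.7 in GFP cells; the part of the score in the lack of H3Ac was not tested. H3K9me3 overlapped 25.6% of the H3K4me3 peaks of the dense windows in Cre and 32.8% in GFP cells, where over all autosomes it overlapped 2.46% and 4.68%. In the excepted windows of chromosome 4 it overlapped 58.9% and 60.2%. The dense windows were chosen for their many GFP H3K9me3 peaks, so a share above that of all autosomes follows largely from the rule. An overlap in bulk cells does not place both marks on the same chromosome copy or in the same cell.

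**Figure D5:**
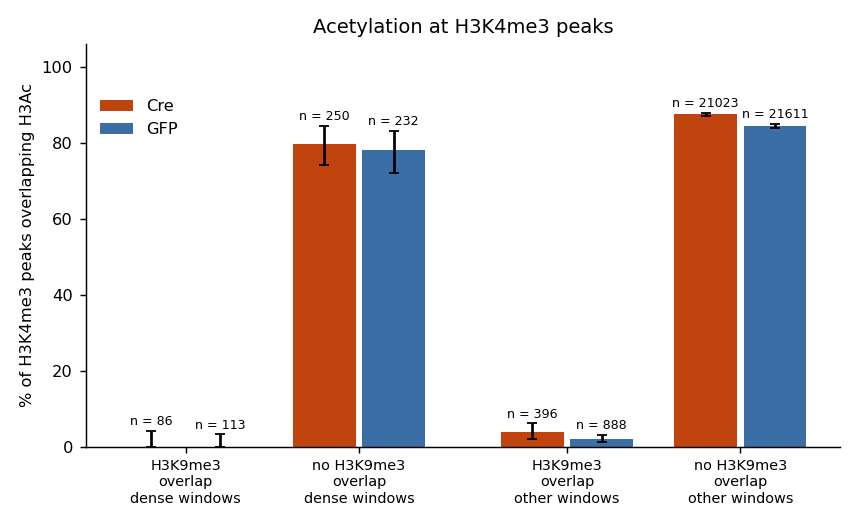
Share of H3K4me3 peaks that overlap H3Ac of the same library (vertical axis, %), for peaks that do or do not overlap H3K9me3, in dense and in other autosomal windows, Cre bars left of GFP bars; lines are exact 95% binomial intervals and n is the number of H3K4me3 peaks. In dense windows the share is 0% on H3K9me3 and 79.6% (Cre) and 78.0% (GFP) off it.

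Most H3K4me3 and H3Ac peaks of the dense windows had a counterpart in the other library. Of the H3K4me3 peaks, 277 of 336 in Cre (82.4%, 77.9 to 86.4) and 278 of 345 in GFP cells (80.6%, 76.0 to 84.6) had a counterpart, where 87.4% and 89.4% of all autosomal ones did. The share in GFP cells was lower on H3K9me3: 67 of 113 GFP H3K4me3 peaks there had a Cre counterpart (59.3%, 49.6 to 68.4), against 211 of 232 off it (90.9%, 86.5 to 94.3). In the other autosomal windows these shares were 37.0% (33.9 to 40.3) and 91.9% (91.5 to 92.2). In Cre cells the shares were 81.4% (71.6 to 89.0) on it and 82.8% (77.5 to 87.3) off it. The H3K4me3 peaks on H3K9me3 scored lower, as given above, and the part of the score in these shares was not tested. Of the H3Ac peaks, 84.7% in Cre (79.8 to 88.8) and 82.4% in GFP cells (77.5 to 86.7) had a counterpart, where 84.6% and 73.2% of all autosomal ones did. For the few H3K27me3 peaks it was 51 of 77 in Cre (66.2%, 54.6 to 76.6) and 49 of 89 in GFP cells (55.1%, 44.1 to 65.6), where the autosomal shares were 77.3% and 68.3%.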

How the data were processed

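Chromatin immunoprecipitation and sequencing had been done for 4 histone marks in Cre and GFP cells, and the 8 deposited peak lists were used here. Each gives peak positions, names and a score. No header names that deposited score or its unit; it varies with depth and control library and was used within a list only. Peak names begin with MACS. Per the submitters' processing notes, the build was NCBIM37 and the tools included MACS 1.4.1, SAMtools 0.1.18, BWA and bedtools 2.16.2; which tool served which sample, the control used for each list and the duplicate handling are not given in the sources used here. By its label the GFP histone input is replicate 1, whereas the Cre input and the immunoprecipitated histone libraries are replicate 3. Read depth is unknown from these lists.

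Starts were converted to count from 1. Peaks were placed in 1 Mb windows by their midpoint, and a counterpart was any peak of the other library that shared at least 1 base. The sample labels gave the groups; each mark had a single library per condition, and no p-value was computed. Shares carry exact (Clopper-Pearson) 95% intervals, ratios of counts the interval of the matching binomial share, and peaks per Mb exact Poisson intervals. Beside a count of 0 the limit is 3 counts of the total. All are for counting error only and take peaks as independent. The gene tables at hand are on GRCm38.p6, so no gene name or sequence was attached. Named windows were those with most GFP peaks (8) and most Cre peaks (5), the 3 with the highest and the 3 with the lowest ratio of covered bases, and those near the threshold; named peaks led by score, by width, by score without a counterpart, and by H3K4me3 score. The region on chromosome 12 without its widest peak and the groups of windows by H3K4me3 were chosen after values were seen. Members, rule and lists were chosen with earlier results of these data known. Alternatives tried were joining peaks up to 1000 bases apart, a score of 100 or more, an overlap of at least 50%, equal numbers of top-scoring peaks, windows shifted by 0.5 Mb, thresholds of 20 and 40 peaks, windows chosen on the Cre list, and leaving out the window with most peaks or chromosome 12. Overlap counting was tested on simulated data made from the 9574 autosomal GFP H3K9me3 peaks (3 thinned lists with shifted positions), and the share recovered was within 0.407 percentage points of the true one. Python 3.11.15, NumPy 2.4.6, pandas 2.3.3, SciPy 1.17.1 and matplotlib 3.10.9 were used, and overlaps were checked against bedtools 2.31.1.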

Additional observations from a re-analysis of the deposited data

Results flagged for a closer look

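H3K9me3 peaks on sequences of the build that are not placed at a position of a chromosome were outside the comparisons. Cre cells had 226 of them and GFP cells 344, covering 506.0 kb and 885.1 kb, with median scores of 81.2 and 97.0. The windows used here leave them out.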

How the results depend on the processing

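Of 55 alternative values over 7 results, 29 kept their direction and stayed within the limit set for a change, 24 moved and 2 reversed. With equal numbers of top-scoring peaks in each list, the ratio of Cre to GFP peak numbers in the dense windows was 1.03 (0.934 to 1.13, which holds 1; 0.959 in the other windows), and the ratio of covered bases was 0.544, below the 0.588 of the other autosomal windows; GFP members then had a Cre counterpart in 46.6% and Cre members a GFP counterpart in 61.4%. With a minimum score of 100 the count ratio was 0.338, the ratio of covered bases 0.284, the share of Cre members with a GFP counterpart 80.9%, GFP members on H3K4me3 8.03% and GFP H3Ac peaks 5.54 per Mb. An overlap of at least 50% of the peak gave 16.0% of GFP and 70.4% of Cre members with a counterpart and 3.36% of GFP members on H3K4me3. Windows shifted by 0.5 Mb (36 dense ones) gave a ratio of covered bases of 0.374, 3.90% on H3K4me3 and 8.50 H3Ac peaks per Mb. A threshold of 20 GFP peaks (58 windows) gave 0.388, 6.74% and 9.97 per Mb. A threshold of 40 (24 windows) gave 0.375 and 5.04 per Mb, and 79.5% of Cre members with a counterpart. Cre cover was under 0.5 of the GFP cover in 18 of those 24 windows. That result was compared as a count, which depends on the number of windows. Without the window with most GFP peaks the ratio of covered bases was 0.370. The 10 windows chosen on the Cre list had a count ratio of 0.708, a ratio of covered bases of 0.556 and a Cre counterpart for 41.3% of GFP members. Except where it is set above, the cause was not tested. Leaving out chromosome 12, chosen after seeing the data, moved none of the 5 values it was tried on. No paired analysis was possible because each mark had 1 library per condition.

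The limits are 1 library per mark and condition, unknown read depth, peak lists cut at a score of 50, and a rule that used the GFP list.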

Other observations

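The windows were limited to autosomes, but chromosome X had 5 windows of 1 Mb with at least 30 GFP H3K9me3 peaks. They began at 3, 4, 30, 31 and 32 Mb, and held 37, 41, 39, 42 and 10 Cre peaks against 137, 111, 125, 157 and 42 GFP peaks. Those that began at 3, 30 and 31 Mb held more GFP peaks than any of the 39 autosomal windows.

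Of the 13 autosomal windows with at least 30 Cre H3K9me3 peaks, 9 were dense windows and 3 were the excepted ones of chromosome 4. The other, from 17 to 18 Mb of chromosome 17, held 33 Cre peaks against 22 GFP peaks, with 68.1 kb and 70.0 kb covered.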
